A study of Mus musculus with 8 samples.

Results

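The secreted frizzled-related proteins were followed across bone cell types as a family of 5 genes, *Sfrp1*, *Sfrp2*, *Sfrp4*, *Sfrp5* and *Frzb*. They were taken by symbol from the gene list of every library, and all 5 were present among the 32285 genes of each of the 8 libraries. The libraries were single-cell RNA-seq profiles of femurs and tibiae from 8 female mice, with 2 controls and 2 mutants per age (7 or 13 weeks), and measured how transcript levels in bone and bone marrow cells respond to loss of the SOXC transcription factors SOX4, SOX11 and SOX12. Soft tissue and periosteum had been taken off, marrow had been flushed out, and haematopoietic cells had been depleted from the digested cells with antibodies such as CD45 and TER-119. The paper describes the control and mutant mice as pairs of sisters, and the sample titles give a replicate number only. Every mouse was Sox4fl/fl Sox11fl/fl Sox12fl/fl. Control mice carried these alleles without Cre, and mutant mice (SOXCOsxCre) carried *OsxCre* in addition. This transgene drives Cre mainly in the osteoblast lineage, is weakly active in growth plate chondrocytes (GPCs), and was kept silent with doxycycline food until postnatal day 21. The controls carried no *OsxCre*, so an effect of the transgene itself and the loss of the 3 SOXC genes cannot be told apart.

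Secreted frizzled-related proteins carry a cysteine-rich domain like the one with which Frizzled receptors bind Wnt proteins, and a second domain related to netrins. They act outside the cell, where they bind Wnt ligands and in most settings dampen Wnt signalling, one of the main signals for bone formation. *Sfrp1*, *Sfrp2* and *Sfrp5* form one branch of the family by sequence, and *Sfrp4* and *Frzb* (also called *Sfrp3*) form another. Loss of *Sfrp1* raises trabecular bone mass in mice, loss of *SFRP4* gives people thin cortical bone, and *Frzb* is best known from cartilage.

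In the GRCm38 genome (GENCODE M21 annotation), *Sfrp1* (ENSMUSG00000031548) is a 3-exon gene at chr8:23411502-23449632 on the plus strand. *Sfrp2* (ENSMUSG00000027996) has 3 exons at chr3:83766321-83774316 on the plus strand and overlaps the antisense gene *Gm26771*, which took 600 UMIs in all kept cells against 7154 for *Sfrp2*. *Sfrp4* (ENSMUSG00000021319) has 5 exons at chr13:19623104-19632994 on the plus strand. *Sfrp5* (ENSMUSG00000018822) has 3 exons at chr19:42197971-42202252 and *Frzb* (ENSMUSG00000027004) has 6 exons at chr2:80411970-80447625, both on the minus strand. Promoter sequence from RefSeq (GRCm38.p6) was matched for 3 of the 5 members. It is shown because *Sfrp2* was lower in mutant osteoblast-like cells below and SOX factors bind short A- and T-rich motifs, and *Frzb* and *Sfrp5* are set beside it. Each run covers 250 bases before the RefSeq start of transcription in lower case and the first 50 transcribed bases in capitals. The runs lie at chr3:83766071-83766370 for *Sfrp2* (plus strand), chr2:80447347-80447646 for *Frzb* (minus strand) and chr19:42202203-42202502 for *Sfrp5* (minus strand). The RefSeq start of *Frzb* lies inside its GENCODE span given above, so most of its lower-case bases fall within that span.
Sfrp2: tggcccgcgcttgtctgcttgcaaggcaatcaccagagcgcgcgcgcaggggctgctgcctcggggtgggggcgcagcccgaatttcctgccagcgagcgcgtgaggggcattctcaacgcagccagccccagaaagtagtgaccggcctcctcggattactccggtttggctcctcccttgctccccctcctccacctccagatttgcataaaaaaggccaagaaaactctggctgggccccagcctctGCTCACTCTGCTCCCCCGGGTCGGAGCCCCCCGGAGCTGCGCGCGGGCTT
Frzb: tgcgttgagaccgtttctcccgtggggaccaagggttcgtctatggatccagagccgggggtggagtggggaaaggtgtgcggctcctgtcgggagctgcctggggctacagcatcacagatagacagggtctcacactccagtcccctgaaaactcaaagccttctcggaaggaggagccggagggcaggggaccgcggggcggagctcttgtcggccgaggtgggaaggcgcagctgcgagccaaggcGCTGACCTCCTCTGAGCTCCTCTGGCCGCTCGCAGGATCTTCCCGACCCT
Sfrp5: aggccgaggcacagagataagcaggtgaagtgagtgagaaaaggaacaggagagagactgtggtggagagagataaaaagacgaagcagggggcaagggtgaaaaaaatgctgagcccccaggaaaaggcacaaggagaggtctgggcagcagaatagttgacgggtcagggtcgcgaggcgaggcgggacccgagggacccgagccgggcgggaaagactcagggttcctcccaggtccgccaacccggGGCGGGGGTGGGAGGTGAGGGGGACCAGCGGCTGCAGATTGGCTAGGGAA
These stretches were rich in G and C, at 66% for *Sfrp2*, 64.7% for *Frzb* and 61.3% for *Sfrp5*, against a median of 52.7% over all 32851 promoters of the table. They held 22, 20 and 15 CG pairs respectively. Of the letters that SOX factors can bind, ACAAAG (in 18.7% of all promoters on either strand) and ACAAT (31.0%) were looked for. They were not in any of the 3 stretches. TCAAAG, letters bound by the Wnt effectors TCF and LEF (5257 of all promoters), appeared once, 95 bases before the RefSeq start of *Frzb*. This position lies inside the GENCODE span of the gene. A match or its absence in these windows describes the letters only.

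The libraries held between 81894600 and 156090000 UMIs in 12086 to 14151 barcodes, of which 6410 to 8753 per mouse were kept as cells (59629 in all). The replicate 1 library was the deeper one in every group, with a median of 13648.5 to 15532 UMIs per kept cell against 7268 to 8879.5 in replicate 2. Any 2 libraries shared 30 to 63 barcodes. Cells were grouped without using the 5 members or the SOXC genes and named from marker lists, with "-like" for each class, into *Lepr*+ mesenchymal stromal cells (*Lepr*+ MSCs, 3853 cells), *Lepr*+ osteoprogenitors (OPs, 2347), preosteoblasts (preOBs, 2779), osteoblasts (OBs, 26764), *Sca1*+ MSCs (574), GPCs (2644), hypertrophic GPCs (2259) and others. The *Lepr*+ MSC-like, preOB-like and OB-like clusters each met all 14 markers of their lists, *Lepr* and *Adipoq* or *Bglap* and *Ifitm5* among them. The *Sca1*+ MSC-like cluster met all 14 markers of its list, but tendon or ligament fibroblast was the next best list and *Fmod* and *Thbs4* stood among its 10 leading genes. Low-UMI clusters, 2.98 to 19.8% of kept cells per mouse, were kept out of the classes.

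*Sox4*, the main SOXC gene of these cells, checked the labels. It was lower in mutant than control mice in *Lepr*+ MSC-like (mean 163 against 406 TMM-normalised CPM) and OP-like cells (130 against 345) and in the later preOB-like (103 against 273) and OB-like stages (62.9 against 187), with log2 fold changes of -1.32, -1.41, -1.41 and -1.58 and adjusted p of 0.0047, 0.00012, 0.000554 and 0.000791 (edgeR quasi-likelihood test on UMIs summed per mouse, average of both ages). In *Sca1*+ MSC-like cells *Sox4* was 129 against 255 (log2 fold change -1.08, adjusted p = 0.117). *Sox12* was lower in OP-like cells (-1.57, adjusted p = 0.0104), the preOB-like class (-2.19, adjusted p = 0.0031) and OB-like cells (-1.94, adjusted p = 0.0019), and in *Lepr*+ MSC-like cells its log2 fold change was -1.04 (adjusted p = 0.188). *Sox11* passed the expression filter in none of these 5 classes.

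The members divided between cell types in control mice. Levels below are TMM-normalised CPM, the UMIs of a gene scaled to all UMIs of that class in 1 mouse, as mean ± SD over 4 control mice. The 3′ libraries count 1 end of each transcript, so levels do not scale with transcript length and can be set side by side between genes. *Sfrp1* was highest in *Lepr*+ MSC-like cells (259 ± 40.5), followed by OP-like (152 ± 32.9) and cycling cells (32.4 ± 13.6), and both gaps in this order were larger than the sum of the SDs. *Sfrp2* had 99.8 ± 15.6 in *Lepr*+ MSC-like, 68.3 ± 16.6 in OP-like, 61.0 ± 82.6 in *Sca1*+ MSC-like, 36.9 ± 18.9 in cycling and 32.9 ± 10.8 in preOB-like cells, and none of these neighbours differed beyond their spread. *Sfrp4* was the most abundant member. Its level in *Sca1*+ MSC-like cells (1216 ± 297) was above that in *Lepr*+ MSC-like cells (371 ± 140), which was above preOB-like (121 ± 27.0) and OP-like cells (102 ± 13.1), a pair that did not differ beyond their spread, and cycling cells followed (52.7 ± 22.5). *Frzb* was highest in hypertrophic GPC-like cells (153 ± 52.8), with 23.3 ± 9.99 in GPC-like and 19.1 ± 3.11 in OB-like cells, while preOB-like cells had 9.44 ± 3.11. GPC-like and OB-like cells did not differ in *Frzb* beyond their spread. *Sfrp5* was sparse, with 305 UMIs in all kept cells against 8089 for *Sfrp1*, 21672 for *Sfrp4* and 15079 for *Frzb*, and was at 0 in all 4 control mice in 8 of the 14 classes.

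**Figure D1:**
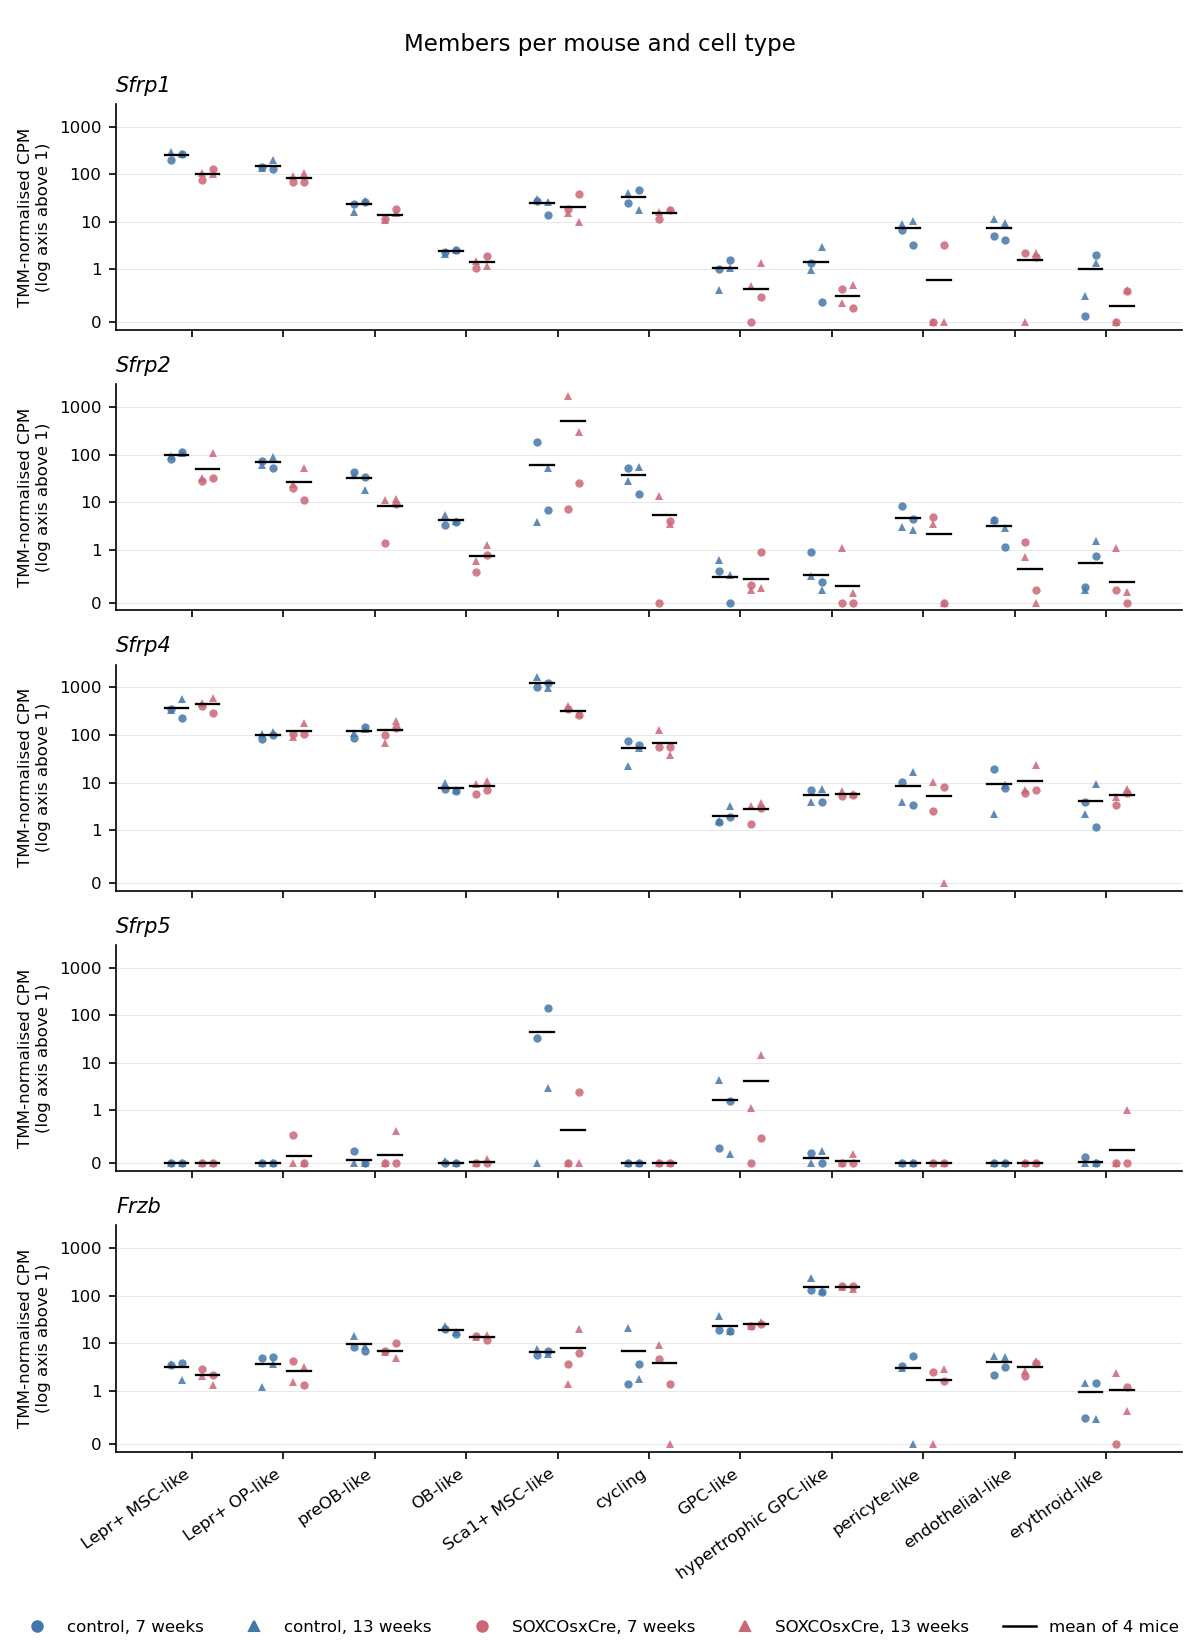
TMM-normalised CPM of each member (log axis above 1, linear below) per mouse in 11 cell classes, with control mice in blue, mutant mice in red, circles for 7 weeks, triangles for 13 weeks and a bar at the mean of 4 mice. In controls *Sfrp1* is highest in *Lepr*+ stroma, *Sfrp4* in *Sca1*+ MSC-like cells (1216) and *Frzb* in hypertrophic GPC-like cells (153). The highest mean of *Sfrp2*, in *Lepr*+ MSC-like cells, does not differ from the next class beyond the spread.

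Cell numbers turn these levels into another picture of where the transcripts lay. In control mice *Lepr*+ MSC-like cells held 56.2% of all *Sfrp1* UMIs and OP-like cells 20.7%. *Sfrp2* UMIs were spread over *Lepr*+ MSC-like (35.5%), OB-like (24.6%), preOB-like (11.9%) and OP-like cells (15.8%), and OB-like cells were by far the most numerous class. For *Sfrp4*, *Lepr*+ MSC-like cells held 43.2% and the few *Sca1*+ MSC-like cells 15.1%. OB-like cells held 50.1% of *Frzb* UMIs and hypertrophic GPC-like cells 35.98%. These shares depend on how many cells of each class the digestion released.

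Of 70 pairs of a member and a class, 33 passed the filter on low counts in 11 of the 14 classes, 19 of them in the 5 stromal and osteogenic classes. Averaged over both ages, 6 pairs were called (adjusted p under 0.05, Benjamini-Hochberg over all genes of the class), and all 6 were lower in mutant mice. They were *Sfrp1* in *Lepr*+ MSC-like and OP-like cells, *Sfrp2* in OP-like, preOB-like and OB-like cells, and *Sfrp4* in *Sca1*+ MSC-like cells. Over all genes tested, 0.175% were called in *Lepr*+ MSC-like, 0.727% in OP-like cells, 0.632% in their preOB-like successors, 1.31% in OB-like and 0.35% in *Sca1*+ MSC-like cells. Outside these classes no member was called, against a background of 0.0125% in cycling cells and 0% in GPC-like, hypertrophic GPC-like, endothelial-like, erythroid-like and haematopoietic progenitor-like cells, where 217 to 400 genes per class had an unadjusted p under 0.05. Of the 14 pairs tested there, 4 had an unadjusted p under 0.05 and DESeq2 called 1, *Sfrp2* in cycling cells. Without the filter on low counts edgeR called *Sfrp2* in cycling and *Sfrp1* in endothelial-like cells. Both pairs passed this filter mainly through the controls, so calls of them are a description only. With the replicate number as a block, for the sister pairs that the paper describes, 11 pairs were called in all, 1 of them in cycling cells. Genes called rose as well in each of the 5 stromal and osteogenic classes. At single ages without the block 2 pairs were called at 7 weeks and 1 at 13 weeks, with 2 mice a group. The background was 0.00875% of genes at 7 weeks and 0% at 13 weeks in *Lepr*+ MSC-like, 0.151% and 0.0944% in OP-like, 0.0275% and 0.0733% for preOB-like, 0.109% and 0.292% for OB-like and 0% and 0.0875% in *Sca1*+ MSC-like cells. The difference between the ages was tested for each pair and called for 0 of 33, with 5 at an unadjusted p under 0.05 and 0 called by DESeq2.

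**Figure D2:**
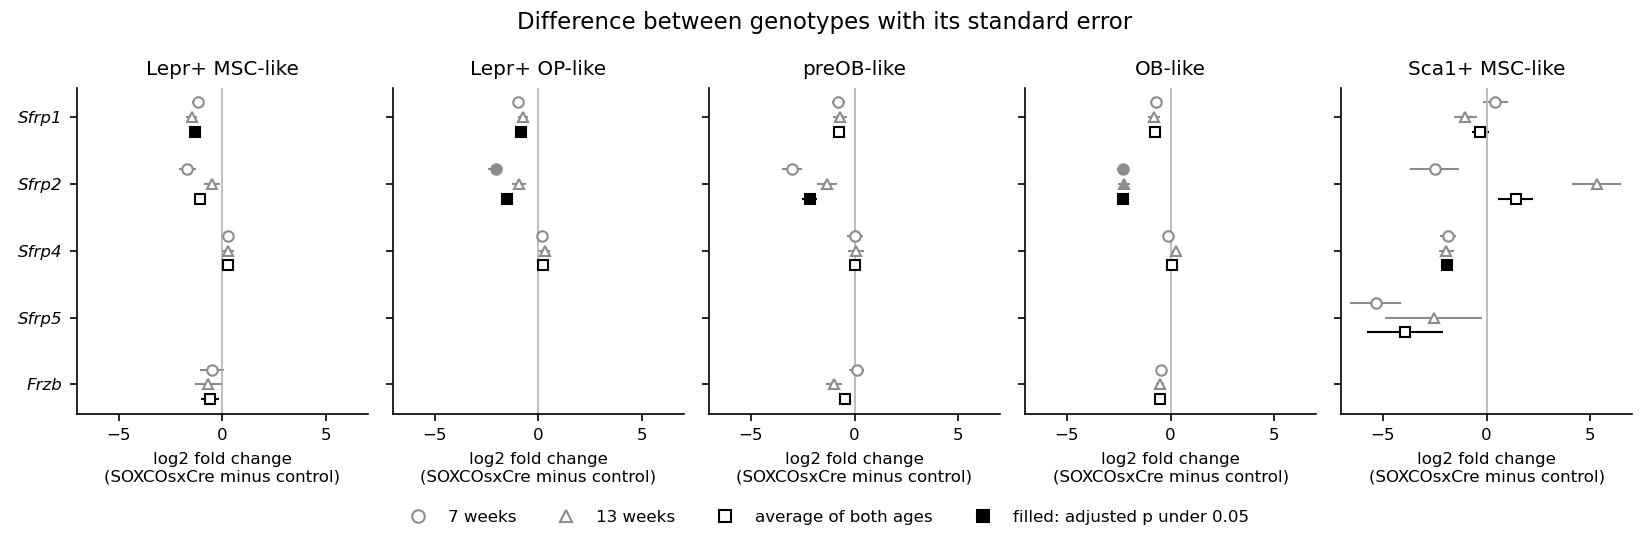
Log2 fold change (SOXCOsxCre minus control) with its standard error for each tested member in 5 classes, at 7 weeks (circles), 13 weeks (triangles) and averaged over both ages (squares), filled where adjusted p was under 0.05. *Sfrp1* and *Sfrp2* lie left of 0 in the 4 *Lepr*+ and osteoblastic classes, while *Sfrp4* lies near 0 there and at -1.90 in *Sca1*+ MSC-like cells.

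*Sfrp1* fell in *Lepr*+ MSC-like cells. The 2 controls stood at 202 and 265 CPM at 7 weeks and at 299 and 268 at 13 weeks, and the mutants at 73.8 and 131 and at 104 and 99.2. Every mutant mouse was below every control mouse. How many of all genes separate the genotypes in this way was not counted, so such separation is described only, here and below. The averaged log2 fold change was -1.34 ± 0.18 (SE), a 2.52-fold lower level (adjusted p = 0.0101, n = 4 mice per genotype in edgeR's quasi-likelihood test). The change was -1.19 at 7 weeks (adjusted p = 0.313) and -1.48 at 13 weeks (adjusted p = 0.184), and both were called once the replicate number was a block in the fit (adjusted p = 0.00452 and 0.000949). Without the replicate 2 mutant of 13 weeks the averaged change was -1.32 with adjusted p = 0.0707.

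In OP-like cells *Sfrp1* was 145 and 126 CPM in controls and 68.4 and 69.4 in mutants at 7 weeks, and 136 and 200 against 91.8 and 109 at 13 weeks. Again the genotypes did not overlap. The log2 fold change was -0.86 ± 0.16 (edgeR, adjusted p = 0.0142), with -0.98 at 7 weeks and -0.75 at 13 weeks, which were called with the block alone (adjusted p = 0.000361 and 0.00806). This call sat close to the threshold and was lost without the replicate 2 control of 13 weeks (-0.72, adjusted p = 0.0739), the replicate 1 mutant of 13 weeks (-0.81, 0.0758) or either mutant of 7 weeks (-0.86, 0.0587, and -0.87, 0.0592). No difference in *Sfrp1* was called further along the lineage. In preOB-like cells it stood at 23.8, 26.5, 15.7 and 27.7 CPM in the controls and 11.5, 18.3, 11.1 and 15.7 in the mutants, and the log2 fold change of -0.74 ± 0.23 missed the threshold (adjusted p = 0.261) but passed with the replicate number as a block (adjusted p = 0.0191) and without the filter on low counts (0.0277). In OB-like cells the controls (2.32, 2.53, 2.14 and 2.59) and mutants (1.06, 1.95, 1.496 and 1.16) did not overlap, with a change of -0.76 ± 0.21 (adjusted p = 0.133, 0.0207 with the block and 0.00274 without the filter).

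Classes outside the skeletal lineage were set beside these levels. *Sfrp1* had a mean of 2.39 CPM in control OB-like cells, above erythroid-like (1.01) and haematopoietic progenitor-like cells (2.06). It was close to megakaryocyte-like (2.44) and below endothelial-like (7.46), pericyte-like (7.27) and granulocyte or monocyte-like cells (15.8). The last mean rested on 1 mouse at 49.8, with the others at 1.64 to 7.78. Control endothelial-like cells had median depths of 3366.5 to 5733.5 UMIs against 9857 to 20916 in OB-like cells. The part of free RNA in these levels was not tested. A UMI of *Sfrp1* was found in 1.61% of control erythroid-like and 3.602% of control OB-like cells. In endothelial-like cells *Sfrp1* stood at 4.93, 4.18, 11.3 and 9.50 CPM in controls and 2.24, 1.82, 0 and 2.15 in mutants. Counts were 13 to 22 UMIs per control and 0 to 11 per mutant. The log2 fold change was -2.12 ± 0.45 (edgeR, adjusted p = 0.622, and 0.00102 without the filter on low counts). The pair passed that filter mainly through the controls, so it is given as a description only. The part that free RNA had in these levels was not tested. In cycling cells the change was -1.11 ± 0.36 (adjusted p = 0.509). In *Sca1*+ MSC-like cells the genotypes overlapped (13.8 to 30.1 CPM in controls and 10.1 to 38.5 in mutants) and the log2 fold change of -0.31 had an interval of ± 2 SE from -1.12 to 0.51.

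Among called pairs of the main fit, *Sfrp2* gave the largest fold changes of the family, in OB-like and preOB-like cells. In OB-like cells of 7 weeks the controls had 3.28 and 3.83 CPM and the mutants 0.570 and 0.907. At 13 weeks the controls had 5.26 and 4.08 and the mutants 0.789 and 1.24. The log2 fold change was -2.27 ± 0.21, a 4.81-fold lower level (edgeR, adjusted p = 0.00105), and it was called at each age as well (-2.30, adjusted p = 0.0244 at 7 weeks, and -2.23, adjusted p = 0.0157 at 13 weeks). The averaged call held without any 1 library (adjusted p at most 0.00478). Leaving out a mouse at a single age leaves 1 mouse in its group, which is then assumed to vary like the other groups. In such fits the call at 7 weeks was lost without any of its 4 mice (replicates 1 and 2 of control, -2.41 and -2.19, and of mutant, -1.96 and -2.63, with adjusted p of 0.0629, 0.151, 0.157 and 0.0634), and the call at 13 weeks without control replicate 1 (-2.03, 0.111), control replicate 2 (-2.40, 0.0564) or mutant replicate 1 (-1.92, 0.166).

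Upstream of the osteoblast, *Sfrp2* fell in preOB-like cells from 43.8, 33.1, 36.5 and 18.1 CPM in the controls to 1.37, 9.15, 11.1 and 11.4 in the mutants. No mutant reached the lowest control. The log2 fold change was -2.16 ± 0.35 (edgeR, adjusted p = 0.0148), with -3.01 at 7 weeks (adjusted p = 0.0781, and 0.000613 with the block), and the averaged call was lost without control replicate 1 of 7 weeks (-2.04, adjusted p = 0.0618) or of 13 weeks (-1.85, 0.0536). It was also lost with DESeq2 (-2.09, adjusted p = 0.0841) and with at most 5% mitochondrial UMIs per cell (-1.05, 0.767), which left 867 of the 2779 cells. In OP-like cells *Sfrp2* was 73.5 and 51.5 CPM in controls against 20.0 and 10.8 in mutants at 7 weeks, and 59.1 and 89.2 against 24.3 and 52.0 at 13 weeks. The highest mutant was just above the lowest control. The averaged change was -1.50 ± 0.24 (adjusted p = 0.00706). At 7 weeks it was -2.05 ± 0.36 (adjusted p = 0.0337), lost without control replicate 1 (-1.76, 0.156) or mutant replicate 2 (-1.66, 0.343). The change of -0.94 at 13 weeks was not called (adjusted p = 0.619, and 0.00726 with the block).

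*Lepr*+ MSC-like cells split by mouse. The controls stood at 82.0 and 115 CPM of *Sfrp2* at 7 weeks and 91.7 and 111 at 13 weeks. Among the mutants 3 stood at 28.3, 32.5 and 31.7, and replicate 2 of 13 weeks stood at 108, within the controls. The averaged change, -1.09 ± 0.28, was not called (edgeR, adjusted p = 0.247), was called with the block (-1.16, adjusted p = 0.00697, and at 7 weeks -1.67, 0.0171) and without the filter (8.10e-08), and was -1.68 without that mouse (adjusted p = 0.00887). *Sox4* in the same cells of that mouse was 143 CPM, as low as in the other mutants. In cycling cells *Sfrp2* was 14.98 to 54.0 CPM in controls and 0 to 13.7 in mutants without overlap (-2.73 ± 0.60, edgeR, adjusted p = 0.17, and 0.0367 with the block). Counts were 24 to 41 UMIs per control and 0 to 6 per mutant. The pair passed the filter on low counts mainly through the controls, so these values are given as a description only. Leaving out control replicate 1 or 2 of 13 weeks gave -2.97 or -2.50.

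In controls the osteoblast signal of *Sfrp2* lay mostly in 1 of the 8 OB-like clusters. Cluster 6, led by *Postn*, *Ptn*, *Cadm1* and *Ifitm5* and so carrying the preOB marker *Postn* beside the osteoblast gene *Ifitm5*, held 10.2% of control OB-like cells and 58.1% of their *Sfrp2* UMIs. In it *Sfrp2* stood at 29.4, 37.4, 21.5 and 30.3 CPM in the controls and 3.23, 4.51, 2.52 and 4.52 in the mutants. The log2 fold change was -3.01 ± 0.21, an 8.04-fold lower level (edgeR, adjusted p = 2.76e-06), in a cluster where 1.07% of genes were called. Fits of single clusters, here and below, were added after the data were seen and were not adjusted over clusters. In the mutants cluster 6 held 11.3% of OB-like cells and 40% of their *Sfrp2* UMIs. Clusters 1 and 4, with *Ifitm5*, *Bglap* and *Bglap2* among their leading genes, had low levels of *Sfrp2*, with means of 1.69 and 2.71 CPM in controls and 0.339 and 0.615 in mutants (-2.40, adjusted p = 0.011, and -2.31, adjusted p = 0.0455), where 1.11 and 0.871% of genes were called. These levels lay below those of endothelial-like cells (mean 3.16 CPM in controls and 0.63 in mutants) and pericyte-like cells (4.57 and 2.10), and their control levels above that of erythroid-like cells (0.74 and 0.39). The part of free RNA in the *Sfrp2* differences of these clusters, and of the OB-like class as a whole (4.11 and 0.88 CPM), was not tested, while cluster 6 stood above all of these levels in every control. In clusters 2 and 3 the changes of -1.41 and -1.07 were not called (adjusted p = 0.22 and 0.249). Counts in cluster 1 were 8 to 44 UMIs per control and 2 to 8 per mutant, and in cluster 4 they were 8 to 44 and 0 to 10. There *Sfrp2* passed the filter on low counts mainly through the controls, so the calls in clusters 1 and 4 are given as a description only.

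**Figure D3:**
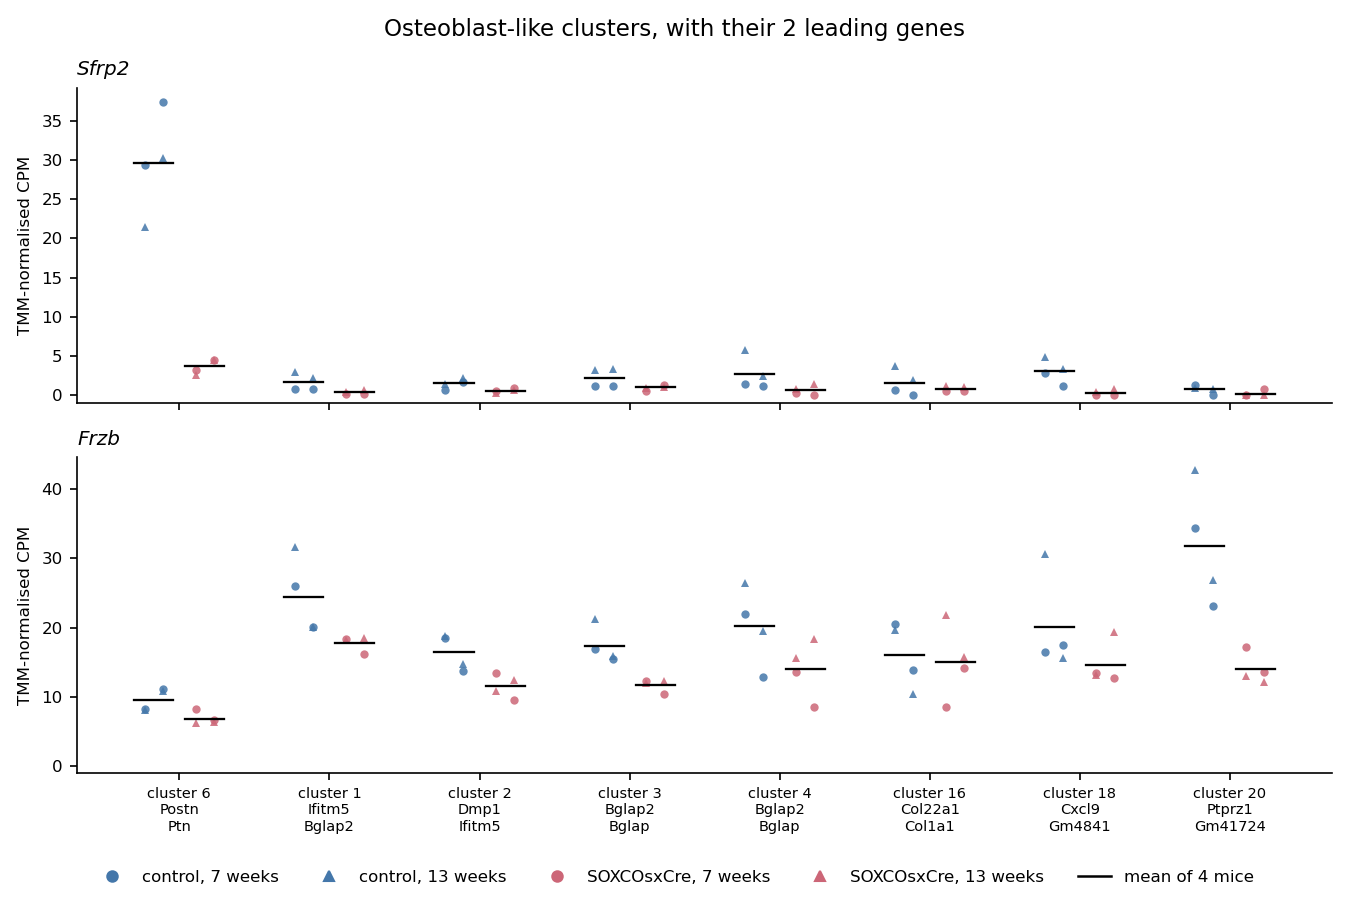
TMM-normalised CPM of *Sfrp2* (top) and *Frzb* (bottom) per mouse in the 8 OB-like clusters, each named by its number and 2 leading genes, with controls in blue, mutants in red and a bar at the mean of 4 mice. In controls *Sfrp2* is highest in cluster 6 (29.6, with 3.69 in the mutants of that cluster) and *Frzb* in cluster 20 (31.8, with 14.0 in its mutants).

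*Frzb* had its highest and lowest osteoblast levels elsewhere. Cluster 6 had its lowest control level (9.57 CPM) and cluster 20, led by *Ptprz1*, *Gm41724* and the osteocyte genes *Dmp1* and *Pdpn*, its highest. There *Frzb* stood at 34.4, 23.1, 42.8 and 26.8 CPM in controls and 17.1, 13.6, 13.0 and 12.1 in mutants. The change of -1.20 ± 0.23 was called (edgeR, adjusted p = 0.00666), with 1.66% of genes called in this cluster, which held 3.13% of control and 2.82% of mutant OB-like cells. In every other OB-like cluster *Frzb* was not called, with changes of -0.57 to -0.20 (edgeR, adjusted p of 0.0957 to 0.873). Over the whole OB-like class *Frzb* was 20.3, 15.7, 22.8 and 17.5 CPM in controls and 14.2, 11.7, 13.7 and 14.8 in mutants, with no overlap. That difference of -0.49 ± 0.13 missed the threshold (adjusted p = 0.113) and passed it with the block (adjusted p = 0.00476, and 0.0468 at 13 weeks), with DESeq2 (0.0322) and without the filter on low counts (0.00232). In hypertrophic GPC-like cells, where *Frzb* was highest, and in GPC-like cells no difference was called. Hypertrophic GPC-like cells had 133, 121, 231 and 125 CPM in controls and 159, 163, 153 and 140 in mutants, with a log2 difference of 0.03 (interval of ± 2 SE -0.32 to 0.37), and GPC-like cells a difference of 0.10 (-0.32 to 0.53). Differences were -0.44 ± 0.26 in preOB-like and -0.59 ± 0.44 in *Lepr*+ MSC-like cells, at levels of 1.35 to 14.0 CPM, and not called.

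No difference in *Sfrp4* was called in the *Lepr*+ and osteoblastic classes. In *Lepr*+ MSC-like cells it stood at 355, 232, 329 and 566 CPM in controls and 416, 284, 481 and 595 in mutants. The ranges overlapped, and the log2 difference of 0.26 had an interval of -0.16 to 0.68. In each same-numbered pair the mutant was higher, by a log2 difference of 0.07 to 0.55, and no alternative called it. The differences were 0.24 in OP-like (-0.12 to 0.60), 0.04 (-0.50 to 0.58) in preOB-like cells and 0.06 (-0.21 to 0.32) in the OB-like class, whose upper limits lie below a doubling.

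*Sfrp4* fell in *Sca1*+ MSC-like cells, the class where it was highest. The controls had 1006, 1239.5, 1627 and 990 CPM and the mutants 353, 267, 405 and 277. All 4 mutants were below the lowest control by a wide margin. The log2 fold change was -1.90 ± 0.26, a 3.73-fold lower level (edgeR, adjusted p = 0.0105), with -1.86 at 7 weeks (adjusted p = 0.504) and -1.94 at 13 weeks (adjusted p = 0.0766, and 0.0473 with the block). The call rested on 31 to 168 cells per mouse and was lost without control replicate 1 of 7 weeks (-1.95, adjusted p = 0.0542) or mutant replicate 2 of 7 weeks (-1.79, 0.0864), and at a doubled doublet rate (-2.13, 0.953), which left 301 of the 574 cells. Some markers of this cluster differed between genotypes, while each summed level below overlapped. The summed level of 6 tendon or ligament fibroblast markers was 102 to 1627 CPM in controls and 808 to 4849 in mutants, with 5 of the 6 genes higher in mutants and *Scx*, a tendon transcription factor, at 6.89 to 26.7 against 32.7 to 120. The summed level of the 14 *Sca1*+ MSC markers was 13010 to 31849 in controls and 21202 to 30165 in mutants, with 6 of 14 higher in mutants, and *Ly6a*, the *Sca1* gene itself, was 532, 303, 1032 and 498 against 316, 83.3, 393 and 161. *Lepr* was lower in every mutant (20.6 to 90.5 CPM) than in any control (136 to 441), and 3 of 14 *Lepr*+ MSC markers were higher in mutants (summed level 1215 to 2832 in controls and 649 to 1976 in mutants). Of the 14 preOB markers 11 were higher in mutants (2633 to 9967 and 6554 to 8786). The part of this in the *Sfrp4* result was not tested.

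*Sfrp2* in these same cells was carried by single mice. It stood at 180 and 6.89 CPM in the controls and 7.28 and 24.9 in the mutants of 7 weeks, and at 3.77 and 53.3 against 1723 and 292 at 13 weeks. The replicate 1 mutant of 13 weeks alone had 2504 UMIs, in 62 of its 141 cells, with 531 in a single cell and 1973 without it, where every other mouse had 1 to 65. In that mouse the tendon genes *Thbs4* and *Tnmd* stood at 1818 and 220 CPM. They stood at 5.03 and 0 in the replicate 2 mutant of 13 weeks, which was next highest in *Sfrp2*. In the mutants of 7 weeks they were 0 and 3.64 in replicate 1 and 264 and 121 in replicate 2. The part of tendon-like cells in the *Sfrp2* levels was not tested. The averaged log2 difference, 1.40 ± 0.83, was not called (edgeR, adjusted p = 0.634, and 0.00183 without the filter on low counts), and it was 0.51 without that mouse (adjusted p = 0.929). Because of it *Sca1*+ MSC-like cells held 70.8% of all *Sfrp2* UMIs of the mutant mice.

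**Figure D4:**
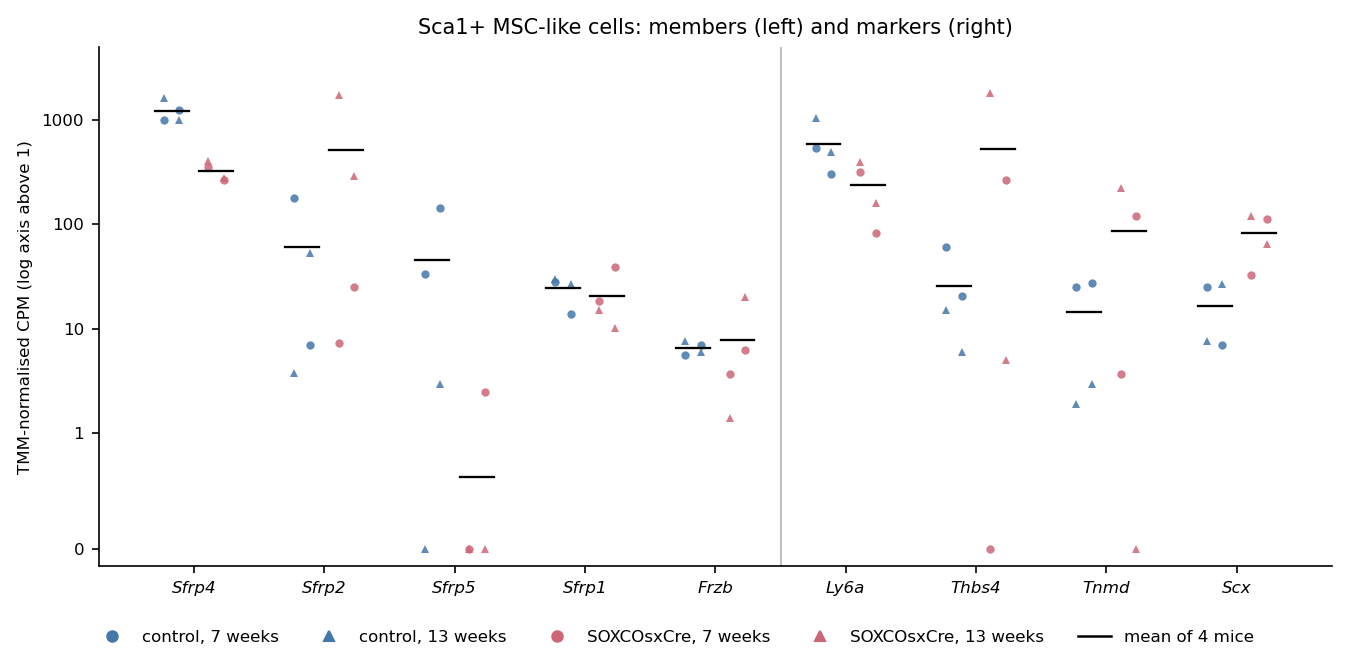
TMM-normalised CPM (log axis above 1, linear below) per mouse in *Sca1*+ MSC-like cells for the 5 members and for *Ly6a* and 3 tendon genes, with controls in blue, mutants in red and a bar at the mean of 4 mice. *Sfrp4* separates the genotypes, *Sfrp2* reaches 1723 in 1 mutant, and *Scx* is above the controls in all 4 mutants.

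*Sfrp5* was sparse and was called in no class. In *Sca1*+ MSC-like cells it gave 12 and 21 UMIs in the controls of 7 weeks and 0 and 1 at 13 weeks, against 0, 2, 0 and 0 in the mutants. The fitted log2 difference was -3.94 ± 1.82 (edgeR, adjusted p = 0.509). The pair passed the filter on low counts mainly through the controls of 7 weeks. In GPC-like cells the counts were 2, 5, 44 and 1 UMIs in controls and 0, 1, 10 and 107 in mutants, so 1 mouse of each genotype held most of them. The fitted difference of -0.41 ± 1.46 was not called and had the opposite sign to the group means, 1.63 CPM in controls and 4.08 in mutants. The highest density of *Sfrp5* lay in a low-UMI cluster of 109 Schwann-like cells, with 77 UMIs or 245 CPM (79.7 to 605 by mouse).

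The share of cells in which a member was seen was compared as well. Each cell was thinned to 2000 UMIs and shallower cells were left out (155 of the *Lepr*+ MSC-like cells, 54 control and 101 mutant). Within age, 2 mice a group give 36 arrangements and a smallest p of 0.0556. *Sfrp1* was seen in 37.3 ± 4.10% of control and 16.7 ± 4.75% of mutant *Lepr*+ MSC-like cells (65.1 and 32.7% before thinning) and in 26.2 ± 3.37 and 16.1 ± 3.94% of OP-like cells. For *Sfrp2* the shares were 14.3 ± 2.17 and 7.06 ± 4.37% in *Lepr*+ MSC-like (33.1 and 14.0% before thinning), 9.94 and 3.50% in OP-like, 3.92 and 1.06% in preOB-like cells and 0.811 and 0.213% for OB-like cells. *Sfrp4* was seen in 52.3 ± 7.71 and 25.2 ± 1.53% of *Sca1*+ MSC-like cells (66.0 and 45.8% before thinning), and *Frzb* in 3.76 and 2.41% of OB-like cells. All of these reached the smallest p of the two-sided exact permutation test, 0.0556, which is 0.136 after adjustment over 22 tests, so none passed 0.05. *Sfrp1* in OB-like cells was seen in 0.455 and 0.363%, with overlapping ranges of 0.285 to 0.657% and 0.192 to 0.686% (exact permutation p = 0.333, adjusted p = 0.524). *Sfrp4* in *Lepr*+ MSC-like cells was seen in 43.6 and 48.7% (exact permutation p = 0.389, adjusted p = 0.57). Control erythroid-like cells gave shares of 0.151% for *Sfrp1*, 0% for *Sfrp2*, 0.716% for *Sfrp4* and 0.427% for *Frzb* after thinning. Their median depths were 20491.5 to 32778 UMIs against 4155 to 8380 in control *Lepr*+ MSC-like cells. For *Sfrp1*, 0.644 to 1.99% of endothelial-like and 0.490 to 1.69% of pericyte-like cells per control mouse had a UMI, above the mean of 0.455% in OB-like cells. These classes also gave more *Sfrp2* than erythroid-like cells in some control mice, with 0 to 0.576% of endothelial-like and 0 to 1.25% of pericyte-like cells. The latter range takes in the 0.811% of OB-like cells. In 1 control mouse with 48 such cells, 6.25% of granulocyte or monocyte-like cells had a UMI of *Sfrp2*. That class includes a cluster of 25 cells, 6 of them from this mouse, that also met all 14 *Lepr*+ MSC markers.

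**Figure D5:**
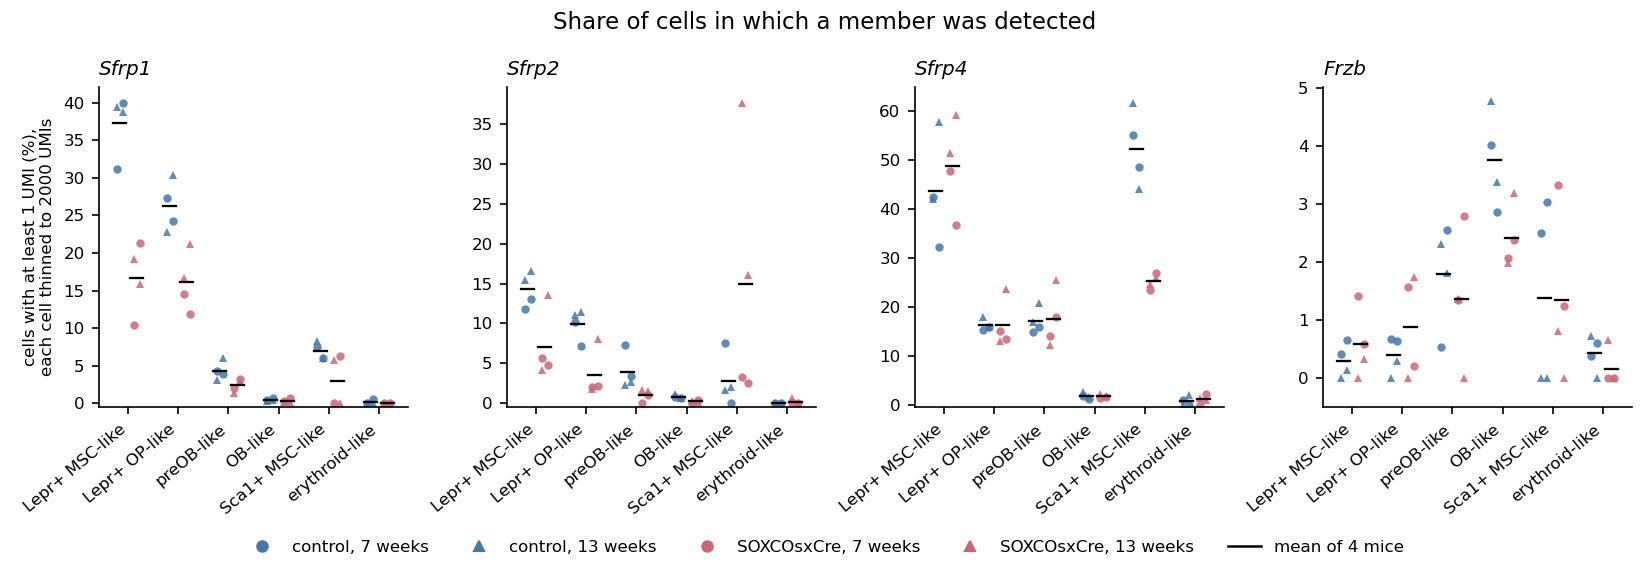
Share of cells (%) with at least 1 UMI of a member after thinning to 2000 UMIs, per mouse in 5 classes and in erythroid-like cells for comparison, with controls in blue, mutants in red and a bar at the mean of 4 mice. *Sfrp1* in *Lepr*+ MSC-like cells (37.3 against 16.7%) and *Sfrp4* in *Sca1*+ MSC-like cells (52.3 against 25.2%) separate the genotypes.

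Within *Lepr*+ MSC-like cells *Sfrp1* and *Sfrp2* were seen in some of the same cells. At equal depth *Sfrp2* was seen in a mean of 16.02% of *Sfrp1*-positive and 13.1% of other cells in controls, and in 14.1 and 5.61% in mutants, higher in *Sfrp1*-positive cells in 4 of 4 mice of each genotype. *Sfrp4* was seen in like shares of both, 44.5 and 43.1% in controls and 48.8 and 48.5% in mutants. In OP-like cells *Sfrp2* was higher in *Sfrp1*-positive cells in 3 of 4 controls and 4 of 4 mutants, and *Sfrp4* in 2 of 4 and 0 of 4 (10.6 against 17.4% in mutants). In preOB-like cells *Sfrp2* was higher in them in 0 of 4 mice of either genotype (1.56 against 4.03% in controls and 0 against 1.08% in mutants). These counts are sparse and are given as a description.

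Without the filter on low counts edgeR called members with age in control mice, as counted at the end. With the filter, from 7 to 13 weeks in control mice 0 of 33 pairs were called by edgeR and 0 by DESeq2, while 3 had an unadjusted p under 0.05. The lowest p was for *Sfrp5* in *Sca1*+ MSC-like cells (log2 difference -5.86 ± 1.34, adjusted p = 1 in edgeR), with 0 and 1 UMIs in the controls of 13 weeks. The background of genes called with age was 0.6% in hypertrophic GPC-like, 0.412% in preOB-like, 0.125% in cycling, 0.124% in GPC-like, 0.109% in OB-like, 0.0283% in OP-like and 0.0178% in endothelial-like cells, and 0% in *Lepr*+ MSC-like, *Sca1*+ MSC-like, erythroid-like and haematopoietic progenitor-like cells.

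Other genes of the Wnt pathway, 86 in 6 lists, were taken from lists fixed for the Wnt ligands, receptors, other secreted antagonists, R-spondins, intracellular parts and targets. In *Lepr*+ MSC-like cells 0 of 57 tested were called and in *Sca1*+ MSC-like cells 0 of 33, with 8 in each at an unadjusted p under 0.05 and 0 called by DESeq2. In OP-like cells, where 0.727% of all genes were called, 3 of 54 were lower, the receptor *Fzd3* (18.3 to 6.70 CPM, log2 fold change -1.40, edgeR adjusted p = 0.0158), the ligand *Wnt11* (10.7 to 4.28, -1.69, 0.0291) and the R-spondin *Rspo2*, which strengthens Wnt signalling (43.1 to 21.5, -1.01, 0.0351). DESeq2 called *Fzd3* and *Rspo2* there but not *Wnt11*. In preOB-like cells (0.632% of all genes called) 1 of 57 was called, the ligand *Wnt16*, which was higher at 13.3 against 5.31 CPM (1.34, adjusted p = 0.0149). In OB-like cells (1.31% of all genes called) 3 of 67 were called. *Wnt16* was higher (1.40 against 0.506 CPM, 1.498, adjusted p = 0.0118), and *Fzd3* (2.06 against 5.44, -1.41, 0.0039) and the secreted Wnt-inactivating enzyme *Notum* (3.56 against 5.87, -0.73, 0.0438) were lower. DESeq2 called these 3 and also *Rspo2* and *Ccnd1*. Among the 13 canonical Wnt targets, such as *Axin2* and *Lef1*, 0 of the 5 to 12 tested per class were called by edgeR (0 to 4 at an unadjusted p under 0.05, and 1, *Ccnd1* in OB-like cells, by DESeq2), and their median log2 fold change was 0.20 in *Lepr*+ MSC-like, 0.09 in OP-like, -0.04 for preOB-like, 0.02 for OB-like and 0.01 for *Sca1*+ MSC-like cells. Of the 10 other secreted Wnt antagonists 3, 3, 4, 6 and 3 were tested in these classes in the same order, with medians of -0.20, -0.30, -0.54, -0.33 and -1.02, and *Notum* was the 1 call. The median over all genes tested was within 0.01 of 0 in each class.

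Marker lists moved beside the *Sfrp1* and *Sfrp2* results in part. In preOB-like cells 11 of 14 OB markers were higher in mutants, with summed levels of 25182 to 45282 CPM in controls and 35198 to 64169 in mutants. There 11 of 14 *Sca1*+ MSC markers were also higher (558 to 1808 and 1104 to 2262), 4 of 14 preOB markers (6817 to 8085 and 6361 to 7173) and 1 of 10 osteoprogenitor markers (2737 to 4039 and 3089 to 3735). The same held for OB markers in OP-like cells, with 12 of 14 higher (9823 to 11768 and 9413 to 16114). In *Lepr*+ MSC-like cells 8 of 14 *Lepr*+ MSC markers were higher, with overlapping sums, as were 0 of 10 proliferation markers (29.2 to 66.5 CPM in controls and 25.6 to 39.99 in mutants), 1 of 6 osteocyte markers (73.1 to 164 and 30.4 to 80.5) and 0 of 7 erythroid markers (122 to 954 and 131 to 297). No proliferation marker was higher in OP-like or preOB-like cells, and no megakaryocyte marker (of 6) in any of these classes or in OB-like cells. In OB-like cells 2 of 11 GPC markers were higher, with sums of 3719 to 5825 in controls and 2048 to 4633 in mutants, as were 9 of 14 *Sca1*+ MSC markers (32.0 to 66.1 and 53.7 to 123) and 0 of 7 haematopoietic progenitor markers (4.36 to 6.51 and 3.15 to 3.97). Their part in the results was not tested.

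Genes whose control levels over the 14 classes were most like those of a member were found among 9794 genes by Pearson's r on log2(CPM + 1). For *Sfrp1* these were *Ism1* (r = 0.984), *Fgf7* (0.984) and *Aldh1a2* (0.983), and for *Sfrp2* they were *Mme* (0.980), *Hvcn1* (0.970) and *Abi3bp* (0.969). *Sfrp4* was followed by *Fbln1* (0.976), *Eya2* (0.956) and *Cpxm1* (0.953), *Sfrp5* by *Lypd2* (0.984), *Shisal1* (0.979) and *Myoc* (0.972), and *Frzb* by *Bmp8a* (0.978), *Otud1* (0.952) and *Golph3* (0.948). The points share their libraries, and *Aldh1a2*, *Mme* and *Fbln1* are themselves on the marker lists that named the classes.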

How the data were processed

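Each of the 8 libraries was labelled as a separate replicate of female mice. The files deposited by the authors hold unnormalised UMI counts per gene and barcode, made with Cell Ranger 6.1.2 on mm10. They list 12086 to 14151 barcodes per library, so a first selection of barcodes had already been made, before the filters on cells given below. Levels and tests kept the mice apart. UMI totals, the shares of UMIs or cells held by a class or cluster, and the Schwann-like level over all mice pooled them. Cells with 200 to 6000 genes and at most 10% mitochondrial UMIs were kept. Doublets were called from simulated doublets at 0.8% per 1000 barcodes (9.67 to 11.3% of cells removed). Cells were integrated with Seurat 5.3.0 (reciprocal PCA, 2000 variable genes without the members and SOXC genes, 30 components) and clustered with Leiden (20 neighbours, resolution 1) into 37 clusters, of which 8 had few UMIs. Clusters were named from marker lists drawn from the study of these samples, so names may differ from those of the study. UMIs were summed per mouse and class with at least 10 cells per mouse (14 classes, B cell-like cells being left out) and tested with edgeR 4.0.16 (TMM, filterByExpr, quasi-likelihood, 1 model of 4 genotype and age groups, R 4.3.3). Levels of a class pool cells of several states. Adjusted p-values are Benjamini-Hochberg over all genes of a class, with a threshold of 0.05, standard errors are the log2 fold change over the root of F, and intervals span 2 standard errors on either side. DESeq2 1.42.0, other scaling, filters, clusterings, doublet rates and each library left out were alternatives. The fitting script was tested on simulated data.

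Same-numbered mice of the genotypes deviated together in *Lepr*+ MSC-like, OP-like, preOB-like and OB-like cells (r of 0.165 to 0.420 over 2 ages), so the replicate number was taken as pairing there. It entered as a block in a second fit, while the main fit took no account of the sister pairs. The number also separates deep from shallow libraries. In *Sca1*+ MSC-like cells r was 0.0105 to 0.0515. Genes named are the members, *Sox4*, called genes of the Wnt lists and the 3 genes most like each member among those reaching 20 CPM. *Sox12*, *Gm26771*, *Ly6a*, *Lepr*, *Ccnd1* and the tendon genes were named after their values were seen. Fits of single clusters were also added after the data were seen. Members and lists were chosen with earlier results of these data known. Shares, counts and their tests cover the spread between these mice only.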

Additional observations from a re-analysis of the deposited data

Results flagged for a closer look

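In 66 groups of 4 mice, 9 had 1 mouse far from the other 3 by Dixon's test, which chance alone gives in about 1 of 20 groups. The replicate 2 mutant of 13 weeks was the high one in 4 of them. It stood at 108 CPM of *Sfrp2* in *Lepr*+ MSC-like cells (others 28.3 to 32.5), 178 of *Sfrp4* in OP-like cells (91.8 to 105), 23.7 of *Sfrp4* in endothelial-like cells (6.098 to 6.95) and 14.7 of *Sfrp5* in GPC-like cells (0 to 1.15). The replicate 1 control of 13 weeks had the high *Frzb* in both chondrocyte classes, at 231 CPM in hypertrophic GPC-like cells (others 121 to 133) and 38.2 in GPC-like cells (17.8 to 18.8). In *Sca1*+ MSC-like cells the replicate 1 mutant of 13 weeks stood at 1723 CPM of *Sfrp2* (others 7.28 to 292), and the replicate 2 mutant of 7 weeks had 2.49 of *Sfrp5* (2 UMIs) where the other mutants had 0, a setting in which any value above 0 stands out in this test. *Sfrp4* in haematopoietic progenitor-like cells was 13.4 in the replicate 2 control of 13 weeks (others 3.63 to 3.96).

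Cells kept out of the comparisons for their few UMIs also held members. The Schwann-like cluster gave 77 UMIs of *Sfrp5*, and the GPC-like cluster of low UMI count gave 81 UMIs of *Frzb* in control mice.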

How the results depend on the processing

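Direction held in every alternative for the 6 called pairs, and *Sfrp2* in OP-like and OB-like cells stayed called in all of them when averaged over age. With all libraries kept, the averaged change of *Sfrp2* ran from -2.28 to -1.63 in OB-like and from -2.56 to -1.05 in preOB-like cells. Leaving out 1 library gave -1.57 to -1.16 for *Sfrp1* in *Lepr*+ MSC-like cells, -0.99 to -0.72 in OP-like cells, -1.84 to -1.28 for *Sfrp2* in OP-like cells, -3.05 to -1.69 in preOB-like cells, -2.44 to -2.10 in OB-like cells, -2.04 to -1.69 for *Sfrp4* in *Sca1*+ MSC-like cells and, for *Sfrp2* at single ages, -2.53 to -1.66 in OP-like cells at 7 weeks, -2.63 to -1.96 in OB-like cells at 7 weeks and -2.56 to -1.92 at 13 weeks. Calls left the threshold for *Sfrp4* in *Sca1*+ MSC-like cells at a doubled doublet rate (-2.13, adjusted p = 0.953, 301 cells in place of 574), for *Sfrp2* in preOB-like cells with DESeq2 (-2.09, 0.0841) and at most 5% mitochondrial UMIs (-1.05, 0.767, 867 cells in place of 2779), for *Sfrp2* in OP-like cells at 7 weeks at the doubled doublet rate (-1.99, 0.0568), and for *Sfrp2* in OB-like cells at 5% mitochondrial UMIs (-2.19 at 7 weeks, -1.80 at 13 weeks) or without integration (-1.31 at 7 weeks, 0.26). Without the filter on low counts *Sfrp2* in *Sca1*+ MSC-like cells was called (1.48, adjusted p = 0.00183). Signs of differences that the test with the filter did not call turned for *Sfrp2* in *Sca1*+ MSC-like cells (-1.30, doubled doublet rate), *Sfrp4* in OB-like (-0.0213 at 5% mitochondrial UMIs, -0.0344 without integration), preOB-like (-0.0385, -0.0216, and -0.0207 with the block) and hypertrophic GPC-like cells (-0.18, resolution 1.5), and *Frzb* in hypertrophic GPC-like cells (-0.0489 at resolution 1.5, -0.0152 at 5%).

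Leaving out 1 library also turned uncalled signs, with ranges of -0.10 to 0.43 for *Frzb* and -1.90 to 1.46 for *Sfrp5* in GPC-like cells, -0.16 to 0.28 for *Frzb* and -0.17 to 0.33 for *Sfrp4* in hypertrophic GPC-like cells, -0.67 to 0.078 for *Sfrp1* in *Sca1*+ MSC-like cells, and for *Sfrp4* -0.0488 to 0.44 in OP-like, -0.42 to 0.33 in preOB-like, -0.0514 to 0.19 in OB-like, -0.0721 to 0.83 in cycling and -0.28 to 0.92 in endothelial-like cells. With the replicate block genes called rose from 20 to 133 in *Lepr*+ MSC-like, 77 to 410 in OP-like, 69 to 377 in preOB-like, 193 to 1321 in OB-like and 20 to 41 in *Sca1*+ MSC-like cells, and members called from 6 to 10. Beyond the values printed above the block changed no call of a member. Without a filter on low counts they were 209, 256, 277, 779, 285 and 11 (and 2 members with age, in place of 0). DESeq2 called 38 in *Lepr*+ MSC-like, 392 in OB-like and 59 in *Sca1*+ MSC-like cells. The 5% limit gave 50 in OP-like and 30 in preOB-like cells, low-UMI clusters counted in gave 32 in *Lepr*+ MSC-like cells, and the doubled doublet rate 0 in *Sca1*+ MSC-like cells. Leaving out 1 library gave 11 to 43, 52 to 75, 32 to 67, 80 to 163 and 1 to 237 in these classes, and 4 to 6 members. Control levels moved for *Sfrp2* in OP-like cells (48.6 at 5%) and *Sfrp4* in *Sca1*+ MSC-like cells (914 at the doubled doublet rate). The cause of these changes was not tested beyond the cell numbers given. *Sfrp5*, with 305 UMIs in all kept cells, was called in no class.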
